A study of Mus musculus with 12 samples.

Results

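The genes of the oxytocin and vasopressin system were followed in the amygdala of C57/BL6 mice that had been scored for ‘anxiety’-like behavior. The set held 6 genes out of 47729 in the deposited table, found by matching each Ensembl identifier to the symbols Oxt, Avp, Oxtr, Avpr1a, Cd38 and Lnpep in GENCODE M21. Bilateral amygdala of 12 nulliparous, age-matched female mice was collected after rapid decapitation, and 1 mRNA library per mouse was sequenced in a single run with single-end reads of 75 bp. Before the tissue was taken, every mouse had been tested for entries into the open arms of a raised maze (EPM), for its use of a lit compartment (LD) and for its contact with a stranger mouse in the social interaction test (SIT), the labels name no transgene, drug or untested control group. The labels predict a less anxious state for 3 mice (mice 3, 7 and 12), an anxious state for 4 (mice 1, 4, 8 and 11) and a more anxious state for 4 (mice 2, 6, 9 and 10), while mouse 5 has no state. The authors made these states from the order of the mice on the second principal component of the same expression data, so a gene that moves with the state is not independent evidence of a link with behavior. The social measure was not used in that step. It is the box:zone ratio of the labels, which sets direct contact with the stranger (box) against more distant contact (zone) over the first 3, 5 and 10 min.

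Oxytocin and vasopressin are short peptides of closely related sequence, each cut from a longer precursor that also yields a neurophysin, the carrier of the peptide in the secretory granule. Magnocellular neurons of the hypothalamus are the best-known source of both, and vasopressin is also made by a small population of extrahypothalamic neurons that includes cells of the medial amygdala and the bed nucleus. Oxtr encodes the oxytocin receptor and Avpr1a the main vasopressin receptor of the brain, both coupled to Gq proteins and phospholipase C, and both are known in the amygdala for parts in social recognition and fear. Cd38 encodes an ectoenzyme that makes cyclic ADP-ribose and is known to be needed for normal oxytocin release. Lnpep encodes the membrane aminopeptidase also called oxytocinase or IRAP, which degrades both peptides.

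The coding sequence of each peptide is shown because the measurement of Oxt and Avp rests on telling these near copies apart. Both stretches code for the 9 residues of the mature peptide and lie in exon 1 of each gene (GRCm38, read on the coding strand, chr2:130576267-130576293 on the plus strand for Oxt and chr2:130582446-130582472 on the minus strand for Avp). Capitals mark the bases that differ.
Oxt: tgctacAtccagaactgcccCCTGggc
Avp: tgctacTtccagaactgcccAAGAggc
The stretches differ at 5 of 27 bases, in 3 codons, and these exchange 2 residues. The identity goes further in the neurophysin part, where a run of 127 bases is the same in both mRNAs and spans the junction of exons 1 and 2 (chr2:130576328-130576715 in Oxt and chr2:130581133-130582411 in Avp, intron included in both intervals).
Shared run: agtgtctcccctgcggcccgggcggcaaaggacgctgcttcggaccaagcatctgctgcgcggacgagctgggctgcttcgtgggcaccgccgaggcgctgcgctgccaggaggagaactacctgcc
A read of 75 bp cannot be placed when it falls wholly inside this run. That holds for 53 of the 463 windows of that length in the Oxt mRNA (11.4%) and for 53 of the 503 windows in Avp (10.5%), and 114 windows of each mRNA lie within 3 mismatches of the other. Salmon divides such reads between the genes in proportion to the rest of their reads, so the few Oxt reads of a mouse with many Avp reads are the least certain values reported here.

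Oxt and Avp lie tail to tail on chromosome 2, Oxt at chr2:130576173-130577054 on the plus strand and Avp at chr2:130580620-130582554 on the minus strand, with 3565 bases between them. The other genes stand alone on their chromosomes. Oxtr lies at chr6:112473683-112489943 (minus), Avpr1a at chr10:122448499-122453452 (plus), Cd38 at chr5:43868553-43912375 (plus) and Lnpep at chr17:17521410-17625050 (minus), all in GRCm38. Cd38 overlaps a predicted gene on its own strand, Gm16014, and another on the opposite strand, Gm16015, and the strand setting of the counting is not given in the sources used here, so a part of its reads could belong to them. The annotation gives Oxt, Avp and Avpr1a 1 transcript each.

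The 250 bases before the start of the peptide genes are printed because Oxt and Avp were the members that varied most between mice (RefSeq, GRCm38.p6, each read on the strand of its gene). Capitals mark the motif TGACC on either strand, known from nuclear receptor sites in the oxytocin promoter, and the E-box CACGTG, which reads the same on both strands and is known from circadian control of the vasopressin gene.
Oxt, chr2:130575919-130576168: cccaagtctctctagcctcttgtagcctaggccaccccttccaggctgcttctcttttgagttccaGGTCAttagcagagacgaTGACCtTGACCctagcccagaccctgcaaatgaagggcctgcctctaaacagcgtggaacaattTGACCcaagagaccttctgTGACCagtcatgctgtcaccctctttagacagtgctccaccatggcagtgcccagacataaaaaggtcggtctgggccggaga
Avp, chr2:130582589-130582838: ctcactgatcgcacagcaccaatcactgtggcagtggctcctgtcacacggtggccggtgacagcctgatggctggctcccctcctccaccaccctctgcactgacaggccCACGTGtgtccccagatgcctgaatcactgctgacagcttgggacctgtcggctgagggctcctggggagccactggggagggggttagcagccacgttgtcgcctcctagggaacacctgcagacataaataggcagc
The Oxt promoter held 5 TGACC matches and no CACGTG, and the Avp promoter held 1 CACGTG and no TGACC. Of 32851 promoters of the same length, 35.2% held at least 1 TGACC, 0.0426% held at least 5, and 6.02% held a CACGTG. The limit of 5 equals the count of Oxt, and the motif was already known from this promoter, so the share at that limit is no test. Oxtr held 1 match of each motif, Cd38 held 2 TGACC, and Avpr1a and Lnpep held neither. These stretches end at the RefSeq start. By the GENCODE positions given above, those of Cd38 and Lnpep lie inside the gene and that of Oxtr lies partly inside it. No member held the cyclic AMP response element TGACGTCA, which 1.55% of the promoters had. These matches describe the letters alone, since no binding or chromatin was measured.

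All 6 genes had reads in every mouse, and all 6 passed the filter of at least 10 reads in total over the 11 mice with a state. Oxt had only 3 reads in mice 1 and 7, no more than a count of 0 allows. Totals per library ran from 31745630 to 45142355 estimated counts in these mice. Markers of the dissected tissue were present in each library: summed over the list, central amygdala genes reached 246 to 575 CPM, basolateral genes 863 to 1678 CPM and medial genes 53.2 to 145 CPM (CPM is the count of a gene scaled to a common library total with TMM factors). Most of the central sum came from Sst (182 to 469 CPM) and most of the basolateral sum from Slc17a7 (679 to 1402 CPM), whereas Rspo2 measured 5.71 to 17.4 CPM. No sample stood for more than 1 mouse, so the spread given below is the spread between mice.

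Corrected for exon length, Avp had the highest mean level and Avpr1a the lowest. The mean over 11 mice was 7.57 ± 10.3 CPM per kb of exon for Avp, 3.65 ± 0.539 for Oxtr, 1.02 ± 1.04 for Oxt, 0.719 ± 0.175 for Cd38, 0.616 ± 0.188 for Lnpep and 0.177 ± 0.0633 for Avpr1a (SD). Among the 26801 tested genes with a length, these means stood at percentiles 78.4 (Avp), 66.2 (Oxtr), 49.2 (Oxt), 44.8 (Cd38), 42.9 (Lnpep) and 26.6 (Avpr1a). Neighbours were compared within mice on the log2 scale with an exact sign-flip permutation test. With the members ordered by their mean log2 level, Oxtr exceeded Cd38 in 11 of 11 mice by 2.38 ± 0.441, and Lnpep exceeded Avpr1a in 11 of 11 mice by 1.84 ± 0.596 (exact p = 0.000977 and adjusted p = 0.00244 for both, the smallest p that 11 mice allow). Avp and Oxtr, Cd38 and Oxt, and Oxt and Lnpep did not differ beyond their spread (differences of 0.18, 0.18 and 0.06, exact p of 0.738, 0.749 and 0.919). The receptor for oxytocin was thus present at a higher level per length than the peptide itself in mean values, whereas the mean level of Avpr1a lay below that of Avp.

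The peptide genes varied between mice far more than the other members. Avp spanned a 54.1-fold range over the 11 mice and Oxt a 23.4-fold range, compared with 3.16-fold for Avpr1a, 2.60-fold for Cd38, 2.29-fold for Lnpep and 1.57-fold for Oxtr. The lowest Oxt value rests on 3 reads in mouse 7. Without mouse 6, the highest in both peptides, the range was 18.7-fold for Avp and 17.0-fold for Oxt, and the coefficient of variation 78.3% and 95.1%. With all 11 mice the coefficient of variation of Avp was 136%, where counting error at its mean read number would give 7.89%, and that of Oxt was 102%, where counting error would give 22.2%. For Oxtr these values were 14.8% and 3.89%, and for Avpr1a 35.8% and 23.7%. In edgeR's fit of the groups the biological coefficient of variation was 0.896 for Oxt and 0.866 for Avp, at percentiles 96.9 and 96.6 of all tested genes, and 0.145 for Oxtr, at percentile 27.6. The receptor Oxtr was thus steadier than most tested genes, and both peptides were more variable than most. These percentiles cover genes of all levels. The trend fitted at the level of each gene was 0.170 for Oxtr, not far above its own value, and 0.346 for Oxt and 0.245 for Avp.

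**Figure D1:**
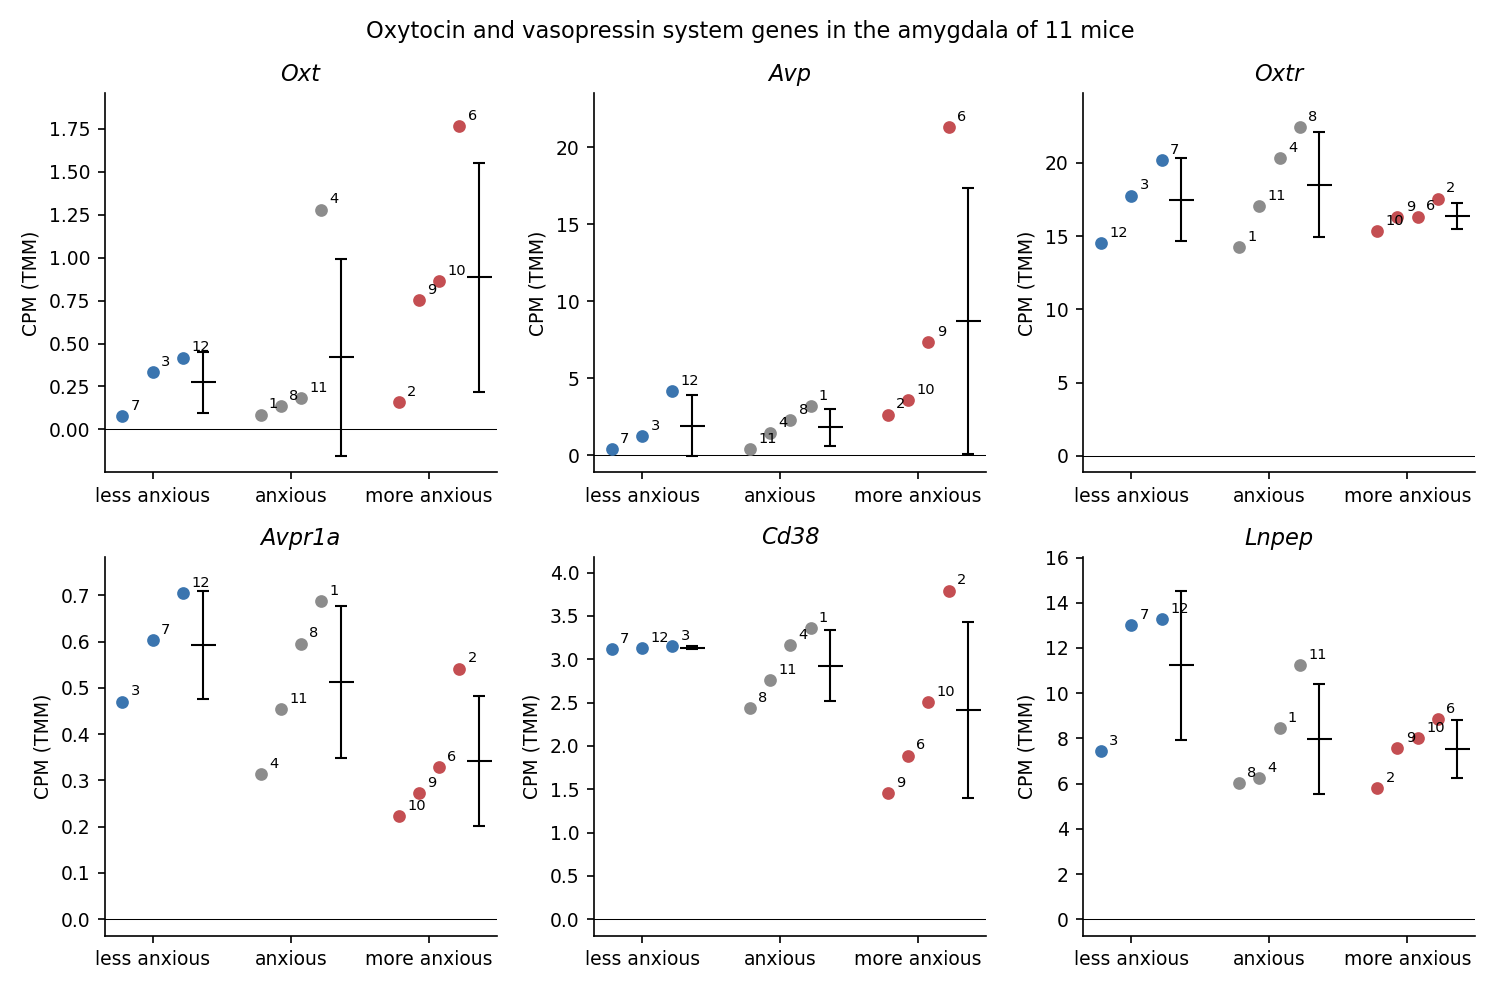
Level of each member in CPM (TMM) in 11 mice, by predicted anxiety state; points are mice with their numbers, and the bars give the mean and SD of each group. In Oxt and Avp mouse 6 lies highest, at 1.77 and 21.3 CPM, and the groups overlap in all 6 panels.

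Oxt was low in most mice. It measured 0.332, 0.0754 and 0.417 CPM in the less anxious mice 3, 7 and 12, from 12, 3 and 16 reads. In the anxious mice 1, 4, 8 and 11 it measured 0.0860, 1.28, 0.135 and 0.182 CPM, from 3, 49, 5 and 6 reads. It measured 0.158, 1.77, 0.751 and 0.864 CPM in the more anxious mice 2, 6, 9 and 10, from 7, 59, 33 and 31 reads. Mouse 6 was highest and mouse 4 second, and the lowest of the more anxious mice, mouse 2, lay below 2 of the 3 less anxious mice. The group means were 0.275 ± 0.178 CPM (SD, n = 3), 0.421 ± 0.574 (n = 4) and 0.885 ± 0.665 (n = 4). The log2 fold change of more over less anxious mice was 1.48 (SE 1.15, 95% interval −1.12 to 4.08), and edgeR's test over the 3 groups gave an adjusted p of 0.946 (unadjusted 0.375). Leaving out mouse 7 brought the log2 fold change to 0.56.

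Avp gave more reads than Oxt in every mouse. It measured 1.27, 0.402 and 4.15 CPM in less anxious mice 3, 7 and 12, from 46, 16 and 159 reads. The anxious mice 1, 4, 8 and 11 had 3.21, 1.44, 2.27 and 0.394 CPM, from 112, 55, 84 and 13 reads. The more anxious mice 2, 6, 9 and 10 had 2.64, 21.3, 7.37 and 3.57 CPM, from 117, 711, 324 and 128 reads. Mice 6 and 9 lay above all others, but mouse 12 of the less anxious group lay above mice 2 and 10, so the groups overlapped. Group means were 1.94 ± 1.96 (SD, n = 3), 1.83 ± 1.20 (n = 4) and 8.72 ± 8.63 CPM (n = 4). More over less anxious mice gave a log2 fold change of 1.80 (SE 1.14, 95% interval −0.85 to 4.45) and more anxious over anxious mice 2.14 (SE 0.97, 95% interval −0.11 to 4.39), with an adjusted p of 0.859 over the 3 groups in edgeR (unadjusted 0.115). The log2 fold change of more over less anxious mice was 0.89 without mouse 7 and 3.05 without mouse 12.

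Avp supplied most of the reads of the pair, 1765 against 224 for Oxt over the 11 mice. Its share of the summed reads had a median of 90.8% over the mice and was highest in anxious mouse 1, at 97.4% (112 of 115 reads, 95% Wilson interval 92.6 to 99.1%). It was lowest in anxious mouse 4, at 52.9% (55 of 104 reads, 43.4 to 62.2%). The intervals cover counting error only, and the spread of the shares was larger than that error, with a chi-square of 18.6 per degree of freedom over 10 degrees, a value that describes these libraries and not the groups. Mouse 4 had the second highest Oxt level and ranked 8 of 11 in Avp, and its interval overlapped that of mouse 11 (68.4%, 46.0 to 84.6%).

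**Figure D2:**
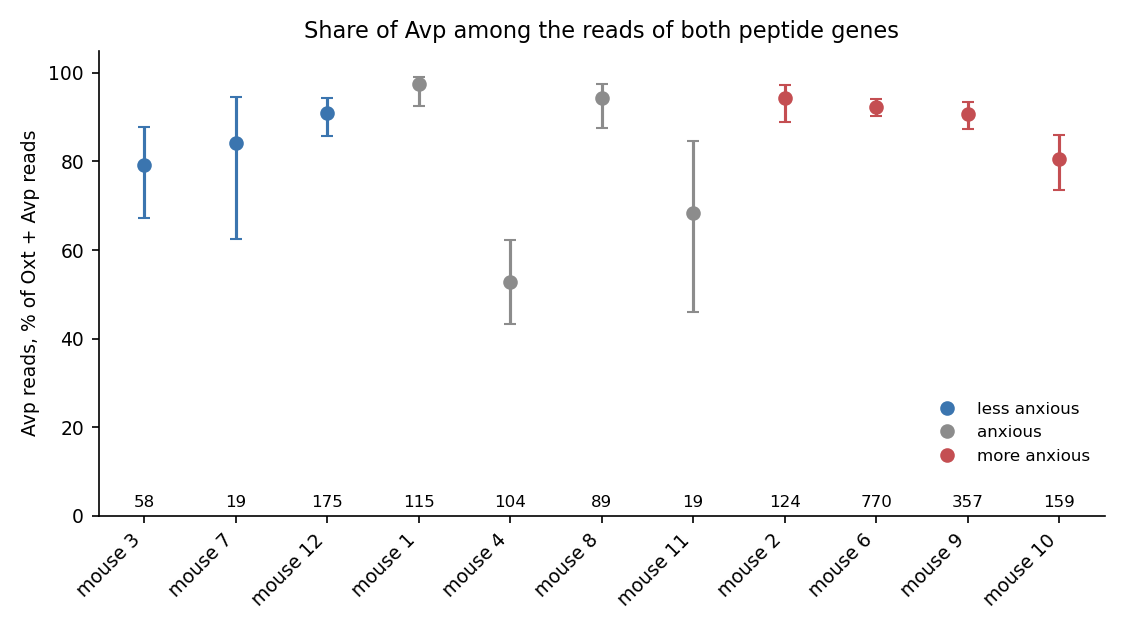
Share of Avp in the summed Oxt and Avp reads of each mouse (vertical axis in %, starting at 0); bars are 95% Wilson intervals, colors give the group, and the number above each tick is the sum of reads. Mouse 4 lies lowest, at 52.9%, and mouse 1 highest, at 97.4%.

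The dissection was checked with markers of neighbouring tissue, because both peptides are made in the nearby hypothalamus and stored in the posterior pituitary. Of 6 genes of the magnocellular lineage, 0 had an unadjusted p under 0.05 over the groups, and their summed level was 219 to 458 CPM in less anxious, 218 to 286 in anxious and 282 to 396 in more anxious mice, most of it from Arnt2. Sim1, a transcription factor needed for magnocellular neurons, was highest in mice 10 and 12 (28.0 and 16.5 CPM) and measured 0.419 CPM, its lowest value, in mouse 6, which had the most Avp and Oxt. Arnt2 was second highest in mouse 6, at 366 CPM beside a median of 255 over the mice, and so was the sum of the list, at 396 CPM. In this mouse the other genes of the list were at or below their medians. Otp measured 2.49 CPM (median 2.49) and Creb3l1 3.71 CPM (median 4.44). Of 10 hypothalamus markers found, 1 (Pomc) had an unadjusted p under 0.05 and none an adjusted one, with sums of 21.7 to 35.6, 20.5 to 58.1 and 18.5 to 72.9 CPM in less anxious, anxious and more anxious mice, most of it from Trh. The lowest of these sums, 18.5 CPM, was that of mouse 6. Single markers of this list differed widely in level. Trh reached 64.2 CPM in mouse 2 and Pomc 7.18 CPM in mouse 11 and 3.55 in mouse 4. Agrp did not exceed 0.652 CPM and Hcrt 0.226 CPM in any mouse, and Hcrt and Six6 were at 0 in some mice. The mice highest in Pomc, 11 and 4, also had the highest summed levels of pituitary markers (11.8 and 54.2 CPM). Pmch lay below its median of 0.221 CPM in both (0.151 and 0.157 CPM). Agrp lay above its median in mouse 11 and below it in mouse 4. Trh was higher in both than in all other mice but mouse 2. Whether the Pomc reads of mice 4 and 11 came from hypothalamic or pituitary tissue was not tested.

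Anterior pituitary hormones set mice 4 and 11 apart. The summed level of 9 pituitary markers was 3.32 to 4.07 CPM in less anxious, 2.33 to 54.2 in anxious and 1.48 to 2.37 in more anxious mice, with 54.2 CPM in mouse 4 and 11.8 in mouse 11. Of 8 tested pituitary markers, 5 had an unadjusted p under 0.05 over the groups and 0 an adjusted one, and Fshb was at 0 in all mice but 4 and 11. The sums of less and more anxious mice did not overlap. Neither did Prl (0.636 to 1.62 against 0 to 0.135 CPM) or Gh (0.553 to 1.43 against 0 to 0.167 CPM). The other markers of the list overlapped. Without mice 4 and 11, which was tried after seeing the data, the log2 fold change of more over less anxious mice was 1.58 for Oxt and 1.91 for Avp, with unadjusted p of 0.0359 and 0.268 and adjusted p of 0.905 and 1 in edgeR. Without mice 10 and 12, which had the most Sim1, it was 1.86 for Oxt and 3.41 for Avp (adjusted p = 1 for both). The part of pituitary or hypothalamic tissue in the peptide levels beyond these values was not tested.

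Markers of other cell types and neighbouring regions also differed between the groups, with no gene called at an adjusted p under 0.05; the unadjusted p are those of the edgeR group test. Log2 fold changes of more over less anxious mice were negative for 5 of 5 striatum genes (median −0.82, Drd1 and Rgs9 with an unadjusted p under 0.05), and the summed level was 104 to 274 CPM in less anxious, 63.4 to 135 in anxious and 83.4 to 223 in more anxious mice. They were negative for 6 of 7 choroid plexus genes (median −0.39, Kcnj13 at −3.26 with an unadjusted p of 0.00368), with sums of 16.2 to 24.7, 13.0 to 15.0 and 9.97 to 17.4 CPM. The genes of this list did not move together. In mouse 12 Kcnj13 and Clic6 were at their highest (5.17 and 8.77 CPM) and Ttr and Folr1 at their lowest (1.02 and 0.0783 CPM). Ttr had a log2 fold change of −0.41 and Folr1 of 0.81 (unadjusted p of 0.399 and 0.544 in edgeR). Among astrocyte genes 6 of 6 were negative (median −0.27, Slc1a3 at −0.50 with an unadjusted p of 0.00277), with sums of 2768 to 3375, 2124 to 2936 and 2285 to 2652 CPM, and among neuron genes 4 of 4 were positive (median 0.30, Rbfox3 at 0.30 with an unadjusted p of 0.0273), with sums of 3347 to 3631, 3246 to 3826 and 3527 to 4444 CPM.

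The microglia and endothelium lists had the sign of the astrocyte list. All 6 microglia genes (median −0.19) and all 3 endothelium genes (median −0.62, Flt1 with an unadjusted p under 0.05) were lower in more than in less anxious mice in fitted value. Of the 4 thalamus genes 2 were higher and 2 lower (median −0.15). The list sums of less and more anxious mice did not overlap for astrocytes and for endothelium (80.4 to 122 against 54.7 to 75.0 CPM). The same held for the pituitary markers (3.32 to 4.07 against 1.48 to 2.37 CPM). The share of these differences in the values of the members and of the genes around them was not tested.

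Of the receptors, Oxtr was nearly level across the groups. It measured 17.8, 20.2 and 14.5 CPM in less anxious mice 3, 7 and 12, 14.3, 20.3, 22.4 and 17.0 CPM in anxious mice 1, 4, 8 and 11, and 17.6, 16.3, 16.3 and 15.4 CPM in more anxious mice 2, 6, 9 and 10. All 4 more anxious mice lay inside the range of the less anxious ones. The log2 fold change of more over less anxious mice was −0.15 (SE 0.14, adjusted p = 0.950 in edgeR), and its 95% interval of −0.44 to 0.15 was the narrowest of the members. With 497 to 829 reads per mouse this was also among the better measured members.

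Avpr1a was the lowest member, with 8 to 27 reads per mouse. It measured 0.470, 0.604 and 0.704 CPM in less anxious mice 3, 7 and 12, and 0.688, 0.314, 0.595 and 0.454 CPM in anxious mice 1, 4, 8 and 11. The more anxious mice 2, 6, 9 and 10 had 0.542, 0.329, 0.273 and 0.223 CPM. The 3 lowest of these lay below every less anxious mouse, while mouse 2 lay inside their range. The log2 fold change of more over less anxious mice was −0.82 (SE 0.38, 95% interval −1.64 to −0.0047), a size relative to its error second to that of Lnpep. In this edgeR contrast its unadjusted p was 0.0489 and its adjusted p 0.563, and 2382 of 26963 tested genes had an unadjusted p under 0.05. The test over the 3 groups did not call Avpr1a (edgeR, unadjusted p = 0.118, adjusted p = 0.863).

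Cd38, the ectoenzyme tied to peptide release, was at almost the same level in the less anxious mice 3, 7 and 12, at 3.15, 3.12 and 3.13 CPM. It measured 3.36, 3.16, 2.44 and 2.76 CPM in anxious mice 1, 4, 8 and 11, and 3.79, 1.89, 1.46 and 2.51 CPM in more anxious mice 2, 6, 9 and 10. Of the more anxious mice, 3 were below all less anxious ones and mouse 2 was the highest of all 11. The log2 fold change of more over less anxious mice was −0.38 (SE 0.28, 95% interval −0.98 to 0.22, adjusted p = 0.947 in edgeR), and it was −0.67 without mouse 2 and −0.14 without mouse 9.

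Lnpep, the aminopeptidase that degrades both peptides, was highest in less anxious mice 7 and 12. It measured 7.44, 13.0 and 13.3 CPM in mice 3, 7 and 12, 8.46, 6.24, 6.01 and 11.2 CPM in anxious mice 1, 4, 8 and 11, and 5.80, 8.84, 7.56 and 8.0 CPM in more anxious mice 2, 6, 9 and 10. Mouse 3 of the less anxious group fell among the more anxious mice, and mouse 11 of the anxious group lay above every more anxious mouse. The log2 fold change of more over less anxious mice was −0.58 (SE 0.26, 95% interval −1.13 to −0.02) and that of anxious over less anxious mice −0.49 (SE 0.25, 95% interval −1.04 to 0.06). For more over less anxious mice the edgeR contrast gave an unadjusted p of 0.0433 and an adjusted p of 0.545. The test over the 3 groups gave an unadjusted p of 0.0908 and an adjusted p of 0.838 in edgeR, the lowest of the 6 members.

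No member was called at an adjusted p under 0.05 over the anxiety groups, and 0 of 6 reached an unadjusted p under 0.05. Under some alternatives a member had an unadjusted p under 0.05 in edgeR, with an adjusted p of 0.504 or more: Lnpep without mouse 3 (0.00565) or mouse 11 (0.0177), Oxt without mouse 4 (0.0203), Cd38 and Avpr1a without mouse 2 (0.0261 and 0.0338) and Avp without robust spread (0.0324). With all 11 mice the same test called 2 of 26963 genes (0.00742%) at the adjusted threshold and gave 6.35% of them an unadjusted p under 0.05. DESeq2's likelihood ratio test of the same model called 186 genes and no member, with adjusted p from 0.600 for Avp to 0.990 for Oxtr and unadjusted p of 0.0559 for Avp and 0.0655 for Lnpep. Of the 6 members, 2 had a positive and 4 a negative log2 fold change of more over less anxious mice, with a median of −0.26, beside a median of 0.004 over all tested genes, 50.5% of which were positive. The less and more anxious mice overlapped in all 6 members, whereas 8.4% of the tested genes showed no overlap between these groups. In whole tissue, fewer cells of a type and less RNA per cell cannot be told apart for any of these values.

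**Figure D3:**
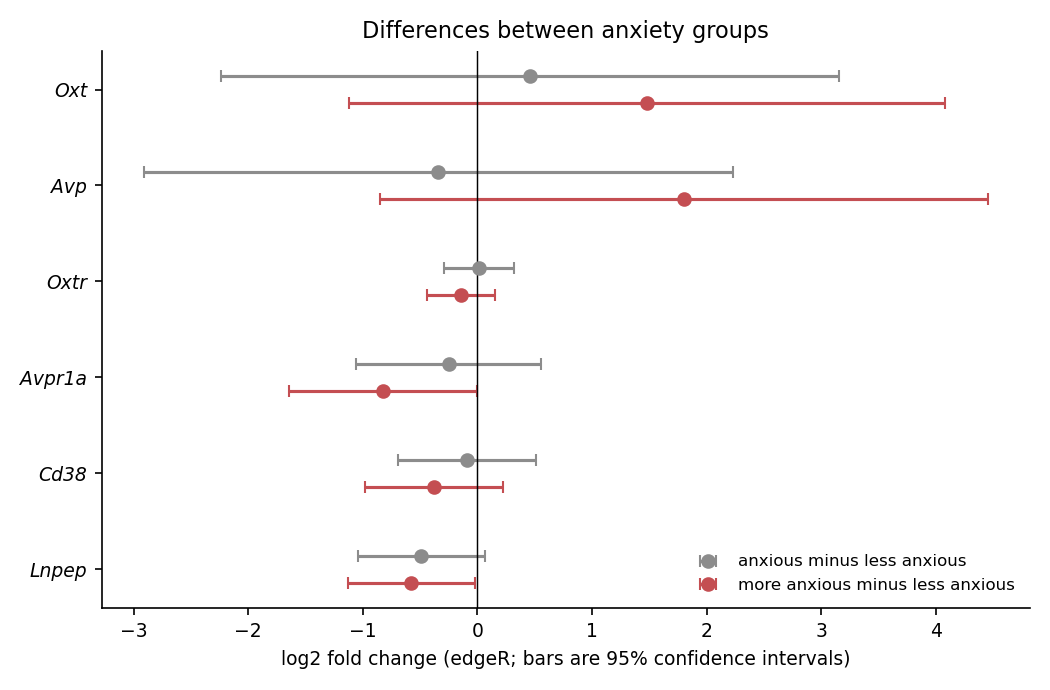
log2 fold change of anxious and of more anxious over less anxious mice for each member (edgeR with the first principal component as a covariate; bars are 95% confidence intervals). The intervals of Oxt and Avp span several units, those of Oxtr stay between −0.44 and 0.32, and the intervals of Avpr1a and Lnpep for more over less anxious mice end just below 0. In that edgeR contrast their adjusted p were 0.563 and 0.545, and 2382 of 26963 tested genes had an unadjusted p under 0.05.

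Without a model, the log2 CPM values (prior count 2) were set against the order of the groups in an exact two-sided permutation test over 11550 arrangements of the mice. Avpr1a had the strongest relation (r = −0.640, exact p = 0.0375, adjusted p = 0.176 over the 6 members), followed by Avp (r = 0.586, exact p = 0.0589, adjusted p = 0.176). Lnpep (r = −0.513, exact p = 0.109), Cd38 (r = −0.499, exact p = 0.117) and Oxt (r = 0.440, exact p = 0.172) came next, and Oxtr had the weakest relation (r = −0.190, exact p = 0.569). No adjusted value passed 0.05. Peptides and their receptors or enzymes differed in sign here, since the values of Oxt and Avp were positive and those of the other 4 members negative. Without mouse 2, a more anxious mouse with high Cd38 and Avpr1a, the relation of Cd38 became r = −0.756 (exact p = 0.00952) and that of Avpr1a r = −0.763 (exact p = 0.0138). Both then passed 0.05 after adjustment over the 6 members. For both genes mouse 2 was the mouse whose omission gave the strongest relation. The adjustment does not cover that choice of mouse, so no conclusion is drawn from it.

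The social test asks whether the members followed contact with the stranger mouse. The box:zone ratio over the first 3 min was lowest in mouse 7 (0.236) and highest in mouse 9 (1.84), and mouse 4 has no value. Only Lnpep had an unadjusted p under 0.05 against it. Its log2 level changed by −0.23 per SD of the ratio (SE 0.10, 95% interval −0.45 to −0.02, n = 10 mice, edgeR unadjusted p = 0.0371, adjusted p = 0.609). At this time 7.65% of 26651 tested genes had an unadjusted p under 0.05 and 0.015% an adjusted one, the background for 1 and 0 of 6 members. Mice 7 and 12, with the lowest ratios, had 13.0 and 13.3 CPM of Lnpep, and mice 3 and 9, with the highest, had 7.44 and 7.56 CPM, but mice 2 and 8 had less at ratios of 0.801 and 1.15. The slope of Avpr1a was −0.31 (SE 0.16, adjusted p = 0.701 in edgeR), that of Cd38 −0.18 (SE 0.12), that of Oxt 0.32 (SE 0.47), and those of Avp and Oxtr were −0.02 each (SE 0.62 and 0.07).

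**Figure D4:**
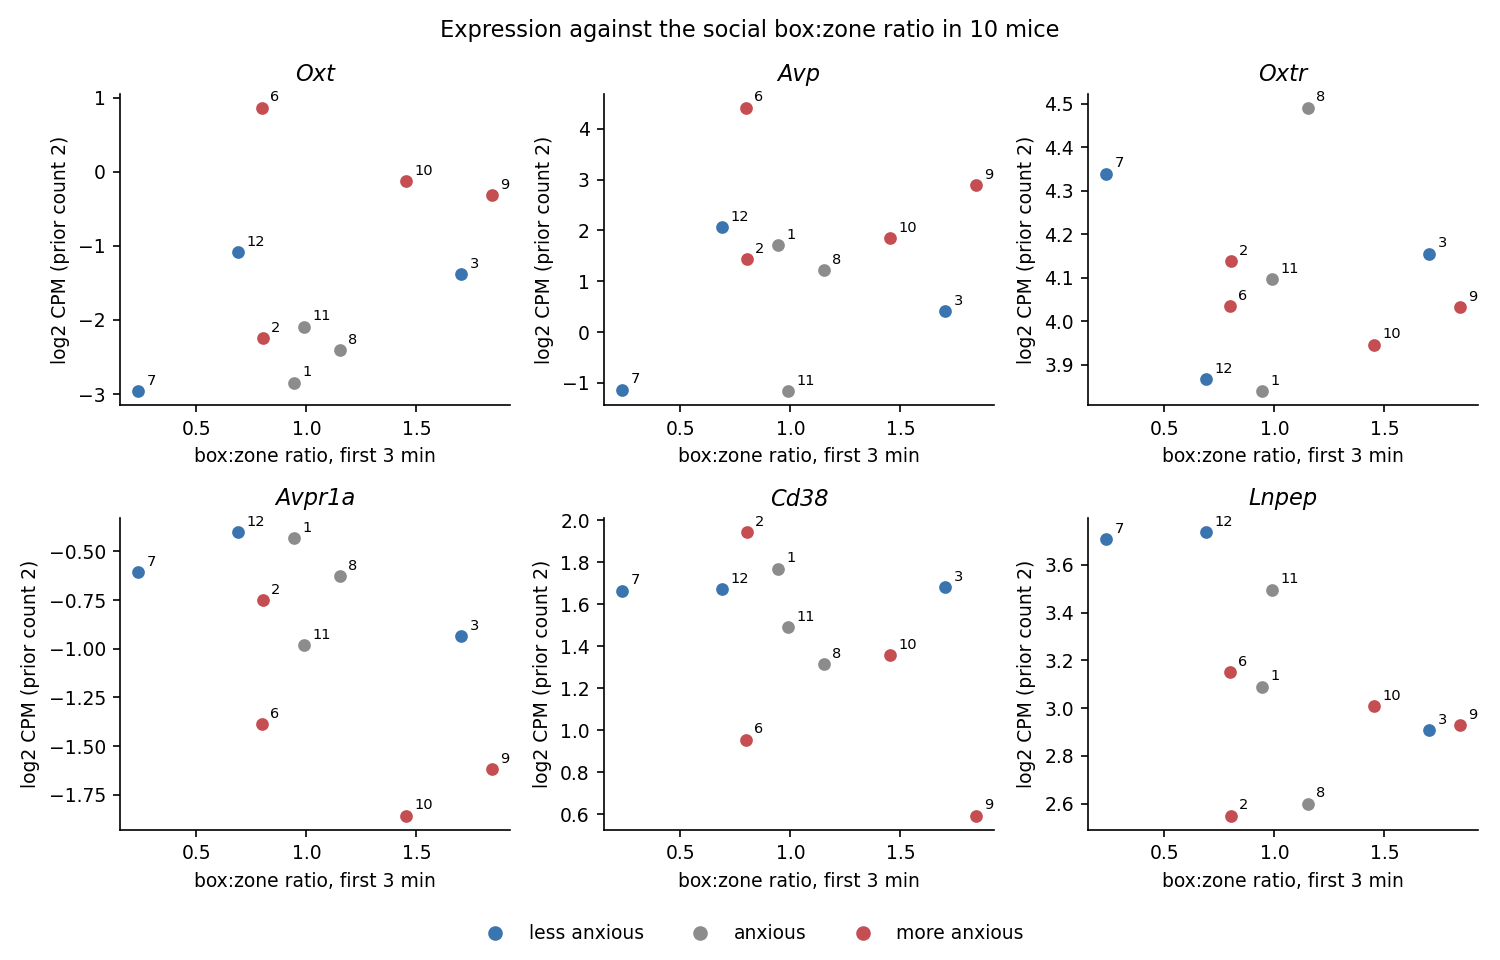
log2 CPM (prior count 2) of each member against the box:zone ratio over the first 3 min in 10 mice; points are mice with their numbers, colored by group. Mouse 7, with the lowest ratio (0.236), lies high in Lnpep and low in Oxt and Avp.

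Over the first 5 and 10 min no member had an unadjusted p under 0.05. The backgrounds were 6.56% unadjusted and 0.0111% adjusted at 5 min, and 8.05% and 0.0223% at 10 min. The slope of Lnpep was −0.13 (SE 0.12) at 5 min and −0.09 (SE 0.12) at 10 min. Avp had the largest slopes in size, −0.53 (SE 0.58) at 5 min and −0.70 (SE 0.57, edgeR unadjusted p = 0.246, adjusted p = 0.793) at 10 min. Slopes of Oxtr lay at 0.04 and 0.02 with an SE of 0.06 and 0.07, and neither 95% interval reached beyond 0.18 in size.

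Correlations of log2 CPM with the ratio were computed for 6 members and 3 times, 18 relations in all, with 100000 permutations each. Avpr1a at 3 min had the largest, with r = −0.592 (permutation p = 0.0717) and rho = −0.612 (permutation p = 0.0678), and r was −0.560 when mice 3 and 9, farthest from the median ratio, were left out. Lnpep at 3 min came next, with r = −0.531 (permutation p = 0.115) and rho = −0.600 (permutation p = 0.0739), and r was −0.546 when these mice were left out. None passed after adjustment, where the smallest adjusted permutation p was 0.815 for r and 0.665 for rho. For the peptides r lay between −0.223 (Avp at 10 min) and 0.405 (Oxt at 3 min). Without mouse 6 the value of Oxt at 3 min became 0.695 (n = 9, permutation p = 0.0399 before adjustment) and its edgeR slope 0.86 in place of 0.32 (unadjusted p = 0.0102, adjusted p = 0.551).

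For the maze and light box measures, Lnpep was the only member with an unadjusted p under 0.05. In edgeR its slope was 0.26 per SD of open-arm time (SE 0.096, unadjusted p = 0.0146, adjusted p = 0.727) and 0.26 per SD of total entries (SE 0.097, unadjusted p = 0.0163, adjusted p = 0.615), and neither passed after adjustment. Unadjusted p under 0.05 was found in 5.84% of tested genes for open-arm time, 6.97% for total entries, 3.55% for the time in the light and 5.8% for the distance in the light. Over 11 mice r was 0.589 for open-arm time (permutation p = 0.0605), with a rho of 0.691 (permutation p = 0.0227), and r was 0.518 when mice 2 and 10 were left out. For entries r was 0.592 (permutation p = 0.0529) and rho 0.601 (permutation p = 0.0544), and leaving out mice 1 and 2 gave an r of 0.581. Among these 24 relations the smallest adjusted permutation p was 0.726 for r and 0.546 for rho. Mouse 12, with the most entries (42), had the most Lnpep, and mouse 2, with the fewest (6), had the least. More anxious mouse 6 had the longest open-arm time of all, 29.2%, beside the highest Oxt and Avp. It also had the largest shares of time and of distance in the light, and the most entries after mouse 12 (36).

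Among the members themselves, 15 pairs were compared after seeing the data. Oxt and Avpr1a had a negative correlation (r = −0.790, permutation p = 0.00569, adjusted p = 0.0853; rho = −0.709, permutation p = 0.0182, adjusted p = 0.274; n = 11), and r was −0.787 without mice 4 and 6. Mice 6, 4, 10 and 9, in this order the highest in Oxt, were the 4 lowest in Avpr1a. Oxt and Avp had a positive one (r = 0.608, permutation p = 0.0467, adjusted p = 0.245; rho = 0.527), as did Avpr1a and Cd38 (r = 0.599, permutation p = 0.0489, adjusted p = 0.245; rho = 0.455). No pair passed after adjustment, and Oxt and Avpr1a are the members with the fewest reads, which limits the precision of their ranks. Reads inside the run that Oxt and Avp share cannot be told apart, and their part in the correlation of these genes was not tested.

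For each member the genes most like it in pattern were ranked by Pearson's r of log2 CPM over 11 mice, among 15891 genes with a mean of at least 1 CPM, as a description. Closest to Oxt were Cenpa (r = 0.902), Hspb6 (0.857), 6330409D20Rik (0.845), Spink10 (0.837) and Cox6b2 (0.831). Closest to Avp were E130307A14Rik (0.897), Klhdc1 (0.889), Gm12963 (0.885), Srpk3 (0.871) and Lypd6b (0.860). Oxtr was followed by Tut1 (0.932), Pqlc1 (0.919), Tor1a (0.914), Nme4 (0.910) and Ccs (0.907), and Avpr1a by B3galt5 (0.951), Itih3 (0.939), Gpld1 (0.925), Vps13d (0.894) and Col18a1 (0.893). Cd38 had Slc38a6 (0.922), Arsk (0.918), Zfp429 (0.916), Gm37767 (0.911) and Nipbl (0.901), and Lnpep had Kif1b (0.958), Atl3 (0.957), Klhl11 (0.953), Gm18609 (0.935) and Usp22 (0.934). The leading value was highest for Lnpep and lowest for Avp.

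Around the members, 32 further genes in 6 lists cover the other receptors, the processing, release and cleavage of the peptides, and the coupling and desensitization of the receptors. None was called over the groups (smallest adjusted p = 0.618, edgeR), and 5 (15.6%, beside 6.35% of all tested genes) had an unadjusted p under 0.05, 2 of them with a positive and 3 with a negative log2 fold change of more over less anxious mice. Values of less and more anxious mice did not overlap in 5 of the 32 genes (15.6%, beside 8.4% of all tested genes): Pcsk1, Itpr1, Grk5, Arrb1 and Arrb2. The median log2 fold change of the 32 genes was −0.03.

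**Figure D5:**
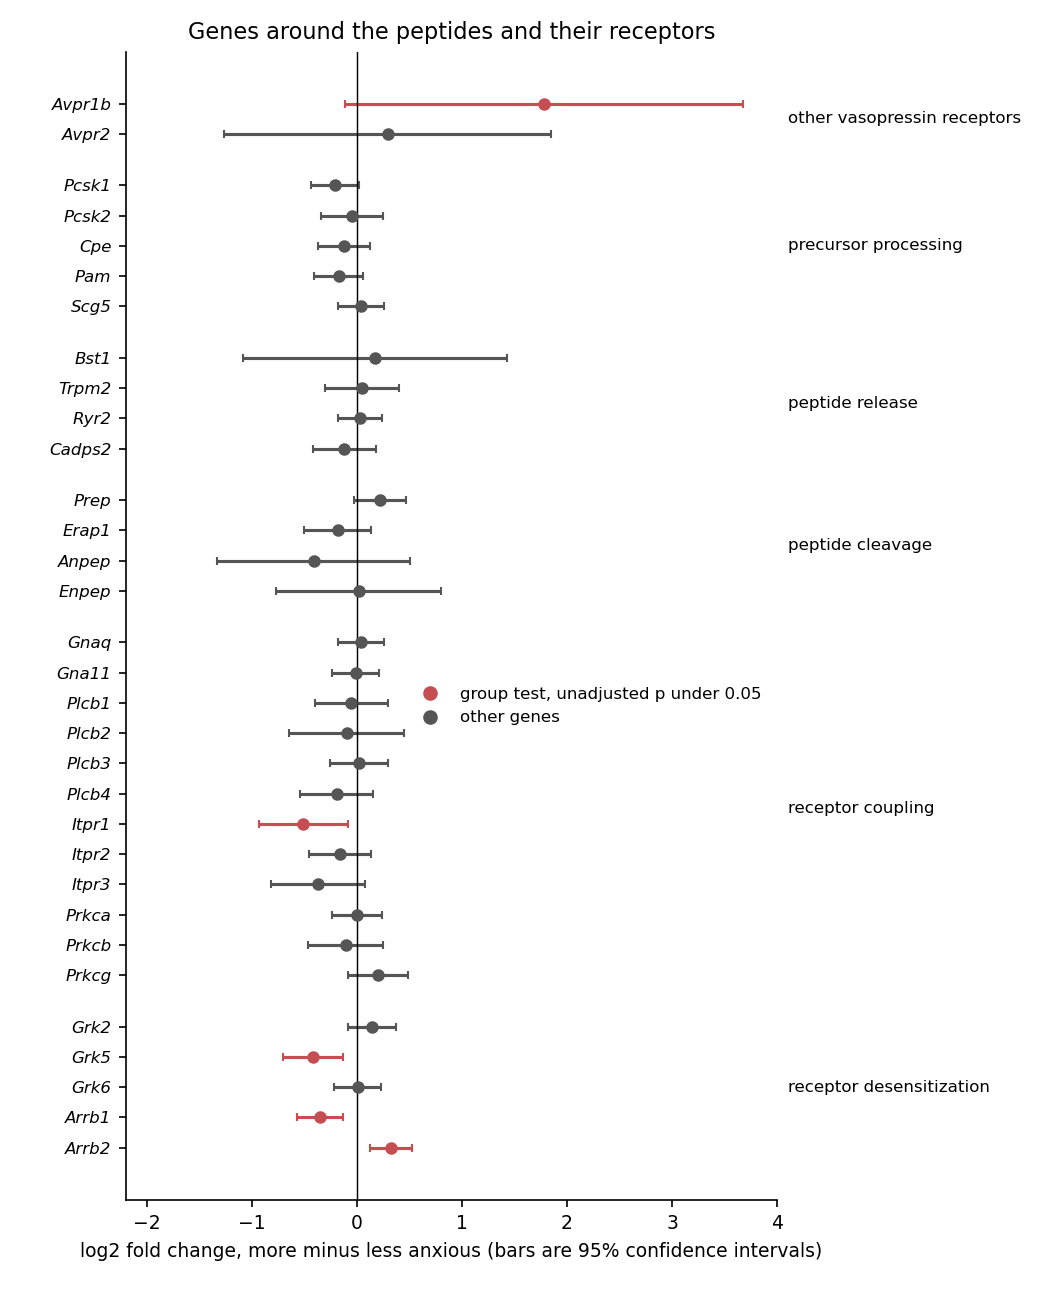
log2 fold change of more over less anxious mice for 32 genes in 6 lists (edgeR; bars are 95% confidence intervals; red marks an unadjusted p under 0.05 in the test over the 3 groups, and no gene passed the adjusted threshold). Grk5 and Arrb1 lie below 0 and Arrb2 above it, at −0.42, −0.35 and 0.32.

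The desensitization list held most of these genes. Arrb1 and Arrb2 encode the β-arrestins, which bind phosphorylated receptors and end G protein signaling, and Grk5 encodes a kinase that phosphorylates them. Arrb1 had a log2 fold change of −0.35 (SE 0.10, unadjusted p = 0.0118) and measured 234 to 278 CPM in less anxious and 185 to 214 CPM in more anxious mice. Arrb2 had the opposite sign, 0.32 (SE 0.094, unadjusted p = 0.0107), with 35.5 to 46.5 CPM in less anxious and 50.0 to 56.2 CPM in more anxious mice. Grk5 had −0.42 (SE 0.13, unadjusted p = 0.0219), with 9.57 to 10.5 and 6.83 to 8.10 CPM. In 3 of 5 genes the unadjusted p was under 0.05, yet the adjusted p was 0.618 or above in edgeR, and the median of the list was 0.006, with the β-arrestins on opposite sides of it. All these proteins serve many receptors besides those for oxytocin and vasopressin.

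In the coupling list, which runs from the Gq proteins through phospholipase C to the IP3 receptors and protein kinase C, 1 of 12 genes had an unadjusted p under 0.05. Itpr1, the main neuronal IP3 receptor, measured 261 to 302 CPM in less anxious and 125 to 245 CPM in more anxious mice (log2 fold change −0.51, SE 0.19, unadjusted p = 0.0186, adjusted p = 0.674 in edgeR). The list median was −0.08. Gnaq and Gna11, the G proteins to which both receptors couple, had log2 fold changes of 0.04 (SE 0.10) and −0.01 (SE 0.10). Against the ratio, Gna11 at 3 min and Plcb2 at 5 and 10 min had an unadjusted p under 0.05.

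None of the 5 genes that process the precursors had an unadjusted p under 0.05, with a median log2 fold change of −0.12. Pcsk1, a prohormone convertase, had the largest (−0.21, SE 0.11, unadjusted p = 0.105), and Pam, which amidates the C terminus of both peptides, had −0.17 (SE 0.11). Of the 4 release genes none had an unadjusted p under 0.05 over the groups, with a median of 0.04. They include Bst1, a paralog of Cd38 (0.0451 to 0.332 CPM), and Trpm2, a calcium channel gated by products of Cd38 (27.0 to 50.7 CPM). Against the ratio, Bst1 at 3 min and Cadps2 at 5 and 10 min had an unadjusted p under 0.05. None of the 4 cleavage genes did so in any of these tests, among them Prep, which encodes prolyl endopeptidase (0.21, SE 0.12, unadjusted p = 0.183).

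The other vasopressin receptors were close to the detection limit. Avpr1b, the receptor known from the pituitary and the hippocampal field CA2, measured 0 to 0.0830 CPM in less anxious, 0.0261 to 0.0303 in anxious and 0.0455 to 0.223 in more anxious mice, and was at 0 in mouse 7. Its log2 fold change of more over less anxious mice was 1.78 (SE 0.88, unadjusted p = 0.0454, adjusted p = 0.768 in edgeR). Avpr2, the renal receptor, measured 0.0574 to 0.389 CPM.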

How the data were processed

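Reads were single-end and 75 bp long. The build named is mm10. The authors quantified transcripts with Salmon, used tximport to sum them per gene, and deposited the estimated counts, as whole numbers and with no normalization, for 47729 genes in 12 mice. The annotation release, the tool versions and the strand setting are not given in the sources used here. Gene symbols and positions came from GENCODE M21 (GRCm38), promoters from RefSeq (GRCm38.p6).

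Here the counts of 11 mice were scaled with TMM factors, and genes with at least 10 reads in total were tested with edgeR 4.0.16 (R 4.3.3), the quasi-likelihood F-test with robust spread, on both group coefficients with the first principal component as a covariate, as the methods of the study include it. Box:zone ratios entered as standardized numbers, 1 fit per measure. P-values were adjusted by Benjamini-Hochberg over all tested genes and called under 0.05. DESeq2 1.42.0, the tool named by the study, was the alternative test. Correlations used log2 CPM with a prior count of 2 and 100000 permutations, all two-sided (scipy 1.17.1). The members and gene lists were chosen with earlier results of these data known. Named genes were all members, up to 4 genes of each list, and the 5 genes closest in pattern to each member; Six6, a further hypothalamus gene, was named after its values were seen. Each library is 1 mouse, and 31745630 to 45142355 counts per mouse set the precision, so that 0 reads allow up to about 3. Procedures were tested on simulated counts. Of 118 listed symbols, 117 were found in the table.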

Additional observations from a re-analysis of the deposited data

Results flagged for a closer look

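In the anxious group the Oxt level of mouse 4, 1.28 CPM from 49 reads, stood apart from those of mice 1, 8 and 11, which lay between 0.0860 and 0.182 CPM, by a gap beyond Dixon's 95% critical value for 4 samples. Of 12 groups of 4 mice tested over the members this was the 1 that stood out. Chance flags about 1 in 20 of the groups tested, so 1 flag among 12 is within what chance can give. Mouse 4 also had the most Prl and Gh, with a summed level of pituitary markers of 54.2 CPM, and the part of that tissue in its Oxt level was not tested.

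Mouse 5, which has no anxiety state and entered no group comparison, expressed all 6 members. It had 18 reads of Oxt, 66 of Avp, 656 of Oxtr, 22 of Avpr1a, 103 of Cd38 and 467 of Lnpep, each above the 3 reads that a count of 0 allows. Avp made up 78.6% of its Oxt and Avp reads (95% Wilson interval 68.7 to 86.0%), inside the range of the other mice, and its library held a read for 23768 genes, compared with 26378 to 28196 in the others.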

How the results depend on the processing

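Across 34 results and 506 alternative values, 457 kept the direction and the side of the threshold or the range of the main value, 32 counts moved, 15 correlations changed sign and 2 trends passed the threshold. The log2 fold changes of all 6 members kept their sign and stayed uncalled under DESeq2 size factors, no count filter, DESeq2, no covariate, no robust spread and each mouse left out.

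The number of genes called over the groups was 2, and became 9 with no count filter, 186 with DESeq2's likelihood ratio test, 0 without the covariate (edgeR, 1610 at an unadjusted p under 0.05), 1 without robust spread, 1 without mice 4 and 11, 8 without mice 10 and 12 (the last pair of alternatives added after seeing the data) and 0 to 4 with 1 mouse left out, 0 without mouse 9 and 4 without mouse 10. Calls against the box:zone ratio were 4, 3 and 6 at 3, 5 and 10 min. With no filter they were 11, 7 and 10, with DESeq2 165, 43 and 111, and with 1 mouse left out 1 to 6, 1 to 5 and 1 to 9. With mouse 5 included there were 6 at 5 min. No member was among any of these calls.

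With 1 mouse left out the log2 fold change of more over less anxious mice ran from 0.56 to 1.92 for Oxt, 0.89 to 3.05 for Avp, −0.25 to −0.03 for Oxtr, −1.12 to −0.67 for Avpr1a, −0.67 to −0.14 for Cd38 and −0.82 to −0.38 for Lnpep. Trends over group order ran from −0.763 to −0.565 for Avpr1a and −0.756 to −0.368 for Cd38, each lowest, and past the threshold after adjustment, without mouse 2.

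Correlations with the ratio that changed sign with 1 mouse left out were weak with all mice kept, at most 0.250 in size (Avp, 3 min). Their size and sign depended on which mouse was left out. They ran from −0.209 to 0.0463 (Oxt, 5 min), −0.211 to 0.0174 (Oxt, 10 min), −0.0803 to 0.484 (Avp, 3 min), −0.252 to 0.0218 (Avp, 5 min), −0.262 to 0.171 (Oxtr, 3 min), −0.0646 to 0.291 (Oxtr, 5 min), −0.0556 to 0.228 (Oxtr, 10 min), −0.230 to 0.00355 (Avpr1a, 10 min) and −0.410 to 0.0488 (Cd38, 10 min). The cause of these changes was not tested. Without mouse 6, r of Oxt with the ratio at 3 min was 0.695, the highest with 1 mouse left out, and it was 0.219 without mouse 7. No paired analysis was possible because the groups share no mice. Depth is lowest for Oxt (3 to 59 reads) and Avpr1a (8 to 27 reads), but the SE of Oxt was close to that of Avp, which had up to 711 reads, and its spread between mice exceeded counting error.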
